A study of Mus musculus with 12 samples.

Results

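The late response of mouse vessels to angiotensin II was described from 6 of the 12 arrays of the series: the 3 arrays of vessels taken at day 7 of infusion and the 3 arrays of vessels from untreated mice (day 0). The arrays were chosen by their sample titles, and no measured value entered the choice. All mice were C57BL/6 males of 8 to 10 weeks. Day 7 mice carried an osmotic pump that delivered angiotensin II at 1500 ng per kg per min in an acetic acid saline vehicle, and day 0 mice received no treatment. A pump with vehicle alone is not described in the labels, so pump implantation and the peptide cannot be told apart, and the sources used here do not name the vessel. The arrays of a group are described as biological replicates. Whether each array holds 1 mouse or a pool is not stated, so the p-values measure the spread between these samples. The 3 arrays of day 3 of the same infusion served as the nearest earlier time.

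Angiotensin II is the effector peptide of the renin-angiotensin system, which constricts arteries through its receptor on smooth muscle. The arterial media is made of smooth muscle cells whose actin and myosin filaments, with their calponin, caldesmon and tropomyosin partners, are kept at a high level by serum response factor and its coactivator myocardin. Sustained angiotensin II is known as a model of hypertensive remodelling, in which fibroblasts deposit collagen in the adventitia and monocytes enter the wall.

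Values are log2 signals as deposited, so a difference of 1 is a 2-fold difference. The scale has an upper end at 19.93. Each gene is represented by its transcript cluster (the array's unit for 1 gene) with the highest mean over the 12 arrays, and 22076 of 30718 genes were bright enough on at least 3 arrays to be tested. A gene was called when its adjusted p in limma, a linear model test for arrays, was under 0.05. The vessel label was checked against markers. Smooth muscle genes were bright at day 0 (Myh11 19.23, 19.30 and 19.28), the endothelial gene Cdh5 was at 10.90, 10.33 and 10.49, and the fibroblast gene Lum at 11.78, 11.48 and 12.41. The brown adipocyte gene Ucp1 was at 11.51, 12.18 and 10.66 at day 0 and at 11.07, 5.83 and 8.22 at day 7, so the samples held fat as well as vessel wall. In such bulk tissue, fewer cells of a type and less RNA per cell cannot be told apart.

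Signal quality differed between the groups and between the day 7 arrays. Positive control features lay above negative ones, median against median, by 2.56, 2.64 and 2.57 at day 0 and 1.20, 1.98 and 2.10 on day 7 arrays 1, 2 and 3. All day 7 arrays were lower than all day 0 arrays (exact two-sided permutation p = 0.1, the smallest that 3 against 3 arrays allow), and array 1 was lowest. Between the 2 groups, genes with a mean signal of 5 to 6 had a median log2 change of 0.25, and those of 10 to 12 had -0.33. On array 1 these medians were 0.39 and -0.75. The part of signal quality in the results below was not tested further than by a fit with this control difference as a covariate, whose counts are given beside the main gene groups. That covariate and the day overlap, since no day 7 array reached a day 0 value.

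At day 7, 2669 genes rose and 2904 fell against day 0, which is 12.1% and 13.2% of the genes tested. Each list count of rises and falls below is to be read beside these shares. At least a 4-fold change was reached by 260 of the rises and 281 of the falls, and at least an 8-fold change by 51 and 113. All 3 day 7 arrays lay above all 3 day 0 arrays in 26.6% of the genes tested and below them in 20.5%. The genes named below for the largest changes, against day 0 or day 3, were picked among called genes with non-overlapping groups. For them a passed test and groups that do not overlap are conditions of the choice and no further support. Small nuclear, nucleolar and other short RNA genes were 2344 of the 22076 genes tested. They made up 552 of the rises and 22 of the falls. Rises were 47.9% of the calls with the values as deposited, 33.6% after quantile normalization and 34.5% after centring each array on its median, settings that moved the median change of all genes from 0.095 to -0.039 and -0.017. Without day 7 array 1 there were 3385 calls and without day 7 array 2 there were 3510, and leaving out any of the day 0 arrays 1, 2 and 3 left 2839, 2966 and 2916. Without day 7 array 3 the rises numbered 4214. With that control difference as a covariate 487 genes rose and 285 fell.

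The genes of the contractile apparatus of smooth muscle fell furthest. Of 28 list genes tested, 25 fell, 2 rose and the list median was -3.29, against 0.095 over all genes tested. Myh11, the smooth muscle myosin heavy chain, went from 19.23, 19.30 and 19.28 on the day 0 arrays to 12.69, 10.80 and 15.10 on day 7 arrays 1, 2 and 3. The groups did not overlap, and array 3 kept the highest and array 2 the lowest signal. The change was -6.40 ± 1.07 (log2, estimate ± standard error of the limma fit, here and below), an 84.6-fold fall (adjusted p = 0.00451).

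Cnn1, calponin, which binds actin and slows myosin, fell by 5.82 ± 0.82, from 14.73, 15.50 and 15.10 to 9.23, 7.90 and 10.73 (adjusted p = 0.00234). Myl9, the regulatory light chain whose phosphorylation starts contraction, fell by 6.25 ± 0.74, from 16.61, 17.51 and 16.74 to 9.99, 9.69 and 12.43 (adjusted p = 0.00132). The integrin Itga8, a smooth muscle receptor for matrix, had 18.68, 18.79 and 18.78 at day 0 and 11.29, 8.20 and 14.38 at day 7, a change of -7.46 ± 1.28 (adjusted p = 0.00488). In each of these genes array 3 stood above the other 2 day 7 arrays. The same order held in Synpo2, an actin-bundling protein, which went from 13.55, 13.30 and 13.78 to 7.18, 6.87 and 8.62 (-5.99 ± 0.76). The calls covered the whole machine: the actin cross-linker Flna (-4.86), the myosin phosphatase inhibitor Ppp1r14a (-4.90), the kinase Mylk that phosphorylates the light chain (-2.14), the tropomyosins Tpm1 (-2.61) and Tpm2 (-3.25), caldesmon Cald1 (-2.52), transgelin Tagln (-3.69) and the BK channel subunit Kcnmb1 (-4.57). Acta2, smooth muscle actin, had reached the upper end of the scale in every untreated sample and was at 16.43, 15.20 and 18.74 at day 7, so it fell by at least 3.14 on the log2 scale. Genes outside the list were among the largest falls as well. Cpe, a carboxypeptidase that processes peptide hormones, went from 17.70, 17.94 and 17.79 to 11.31, 10.42 and 13.63 (-6.02 ± 0.70), and Pcdh7, a protocadherin, from 15.39, 15.57 and 16.10 to 9.55, 8.93 and 11.77 (-5.60 ± 0.69). The phosphatase Ptprz1 (-5.32 ± 0.98) and Ccdc3 (-5.13 ± 0.76) fell with them, array 3 again highest at day 7 in all 4. Desmin, Des, was at -1.24 ± 0.44 and did not pass (adjusted p = 0.0611). The exceptions that rose were Pln, the brake of the calcium pump (0.91 ± 0.19), and Casq2, a calcium store protein (0.68 ± 0.14) whose signal lay below the negative controls on all arrays of both groups.

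Array 2 was the lowest of the day 7 arrays in 22 of the 28 contractile genes and array 3 the highest in 23. Signal quality was lowest on array 1, and lower on all day 7 arrays than on all day 0 arrays. The median difference of the list from day 0 was -3.63, -4.21 and -2.13 on arrays 1, 2 and 3. With the control difference as a covariate the list median was -2.28 and 3 genes fell. With an adipocyte covariate, each array's mean over the white and brown adipocyte lists, it was -2.33 and 5 fell. In the mean of either list all day 7 arrays were below all day 0 arrays, so this covariate and the day overlap too. The lists also hold genes that fell strongly themselves, such as Fasn, and a call lost in that fit cannot be assigned to fat content. Myl9 was called in both of those fits, at -4.41 ± 0.94 and -4.76 ± 0.80, while Myh11, at -4.51 ± 1.58 and -4.32 ± 1.18, was not (adjusted p = 0.16 and 0.112).

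**Figure D1:**
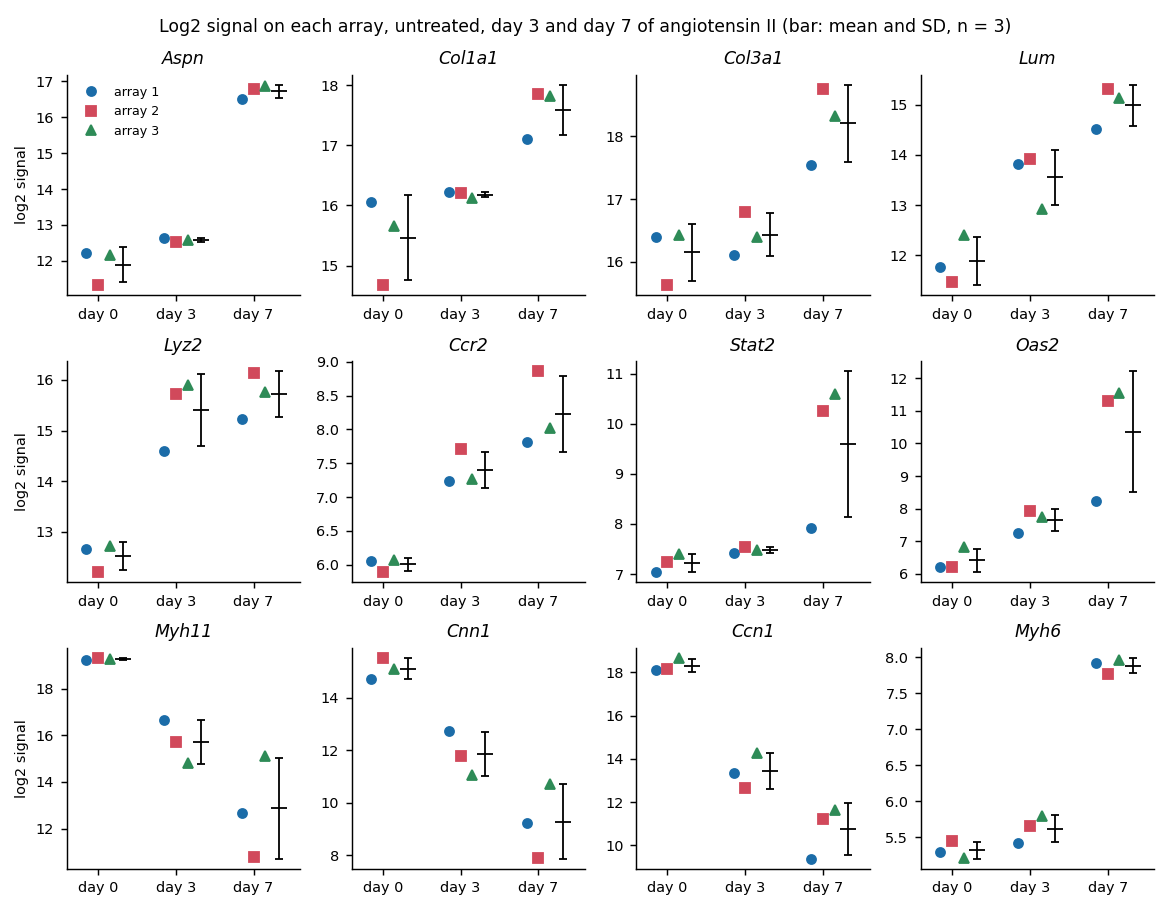
Log2 signal of 12 genes on each array at day 0, day 3 and day 7 of angiotensin II, with array 1 as circles, array 2 as squares, array 3 as triangles, and the mean and SD of 3 arrays as black bars on axes that do not start at 0. Myh11 and Cnn1 are spread widely at day 7 with array 3 highest, Aspn and Myh6 lie close together, and Stat2 and Oas2 are low on array 1.

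Transcription factors and signalling proteins that maintain smooth muscle identity fell with the filaments. Of 27 tested, 19 fell and 0 rose, with a median of -1.20 (array medians -1.32, -1.41 and -0.89). Myocd, myocardin, went from 11.50, 10.68 and 11.49 to 6.94, 5.74 and 7.94, a change of -4.35 ± 0.57 (adjusted p = 0.00183). Its partner Srf fell by 2.17 ± 0.26, from 8.43, 8.66 and 8.60 to 6.50, 6.14 and 6.53 (adjusted p = 0.00133). Both were below every day 0 array on every day 7 array, and Srf differed little among the 3. The LIM domain proteins Pdlim3 (-5.22) and Lmcd1 (-4.75), the kinases Rock1 (-3.79) and Prkg1 (-1.76), the MEF2 factors Mef2a (-2.08), Mef2c (-1.96) and Mef2d (-1.20) and the G protein regulators Rgs4 (-2.20) and Rgs5 (-2.85) also fell. Klf4 (-0.52 ± 0.20) and Klf5 (-0.10 ± 0.11), factors known to oppose the contractile program, did not pass the test. With the control difference as a covariate 2 of the 27 fell, and with the adipocyte lists as a covariate 3 did.

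The CArG box, the element that serum response factor binds, was looked for by its name's consensus on both strands in the 250 bases before the transcription start, in RefSeq sequence of build GRCm38.p6. Of the 24 contractile genes with such a window 3 held it (12.5%), namely Myl9, Vcl and Ldb3, against 1.62% of 27025 genes with a window. Both the Myl9 and the Vcl stretch are given as examples of the element beside genes that fell, with the match in capitals, 5′ to 3′ along the gene. Myl9 lies at chr2:156775278-156775337 on the plus strand and its match starts 161 bases before the transcription start. Vcl, which codes for vinculin and fell by 3.94 ± 0.54, lies at chr14:20929148-20929205 on the plus strand with its match 227 bases before the start.
Myl9: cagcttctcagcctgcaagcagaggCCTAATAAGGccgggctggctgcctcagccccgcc
Vcl: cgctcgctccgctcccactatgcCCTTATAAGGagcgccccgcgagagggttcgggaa
A match is a description of the letters, and a window without one says nothing about the factor.

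Genes that set vascular tone moved down beside the contractile list. In the nitric oxide and cyclic GMP pathway 9 of 17 fell and 2 rose (median -0.70). Gucy1b1, a subunit of the enzyme that senses nitric oxide, went from 12.05, 12.05 and 12.17 to 7.40, 7.84 and 8.68, a change of -4.12 ± 0.42 (adjusted p = 0.000881). It was still called with the control difference as a covariate (-2.81 ± 0.38) and with the adipocyte lists (-3.20 ± 0.40). The cyclic nucleotide phosphodiesterases Pde3a (-3.51) and Pde5a (-2.78), the natriuretic peptide receptors Npr1 (-1.66) and Npr2 (-1.11) and the IP3 receptor partner Mrvi1 (-2.12) fell too. Nos3, the endothelial enzyme that makes nitric oxide, was at -0.09 ± 0.18. Of 22 channels and tone regulators tested 12 fell and 2 rose, among the falls the potassium channel subunit Abcc9 (-2.38) and the chloride channel Ano1 (-2.45). Among vasoactive peptides, their enzymes and receptors, 6 of 20 fell and 2 rose, with Ptgis, prostacyclin synthase (-3.15), and Edn1, endothelin (-1.38), lower and Aplnr, the apelin receptor, higher (1.40). Ace, which makes angiotensin II, was at -1.90 ± 0.61 (adjusted p = 0.0492) and kept its call in 7 of 19 alternatives. Under the control covariate 2 genes of the nitric oxide list, 3 channels and 1 vasoactive gene fell, and with the adipocyte covariate 2, 2 and 0 did (5 vasoactive genes with an unadjusted p under 0.05 in limma). Without day 0 array 1 or day 7 array 2 the vasoactive falls numbered 3. Of 26 NADPH oxidase and antioxidant genes tested 5 rose and 8 fell (median -0.21). Nox4, the NADPH oxidase of the vessel wall, fell by 3.11 ± 0.49, whereas Cybb, the oxidase of phagocytes, rose by 1.78 ± 0.32. Nox4 was not called with the control or the adipocyte covariate (-2.36 ± 0.76 and -2.52 ± 0.66). Cybb was not called with the adipocyte covariate (1.67 ± 0.46).

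The matricellular genes Ccn1, Ccn2 and Ccn3 fell, and so did 14 of 30 genes of the TGF-beta and BMP list. Ccn1, a secreted adhesive protein induced by mechanical load, was the gene with the largest fall among those named: 18.10, 18.15 and 18.64 at day 0 and 9.38, 11.21 and 11.65 at day 7. No day 7 array came near a day 0 array, and array 1 was lowest. The change of -7.55 ± 0.59 is a 188-fold fall (adjusted p = 0.000385), and it was called in each alternative run. Ccn2, connective tissue growth factor, fell by 3.27 ± 0.63, from 15.27, 15.18 and 15.16 to 10.99, 11.34 and 13.48. Of 24 matricellular genes tested 7 fell and 5 rose, and the rises were Cthrc1 (2.02), Thbs4 (1.92), Comp (1.80), Thbs2 (1.31) and Ccn4 (0.76). Ccn3 fell (-2.75), and Ccn5 was at -0.52 without passing. In the TGF-beta and BMP list 1 gene rose and the median was -0.80. The falls included the ligands Tgfb2 (-3.31) and Bmp6 (-2.74), the receptors Bmpr1a (-3.13), Bmpr2 (-1.86) and Tgfbr1 (-1.26), the signal carrier Smad4 (-1.07) and the target Id2 (-3.48). Tgfb1 was at -0.14 ± 0.07 and did not pass against day 0. The rise was Bmper, an extracellular BMP modulator (1.25). Fitted with the control covariate, 1 gene of this list fell, Bmpr1a (-2.48 ± 0.27), and with the adipocyte covariate 1 did. Tgfb2 (-2.13 ± 0.64) and Id2 (-2.28 ± 0.67) were then not called. Of the matricellular genes 2 fell in each of those fits, and 3 and 0 rose (5 with an unadjusted p under 0.05 in limma in the latter).

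Fibrillar collagens and their fibril partners rose. Of 36 collagen chains tested 17 rose and 3 fell, with a median of 0.32 and array medians of 0.46, 0.34 and 0.27. Col1a1 went from 16.06, 14.68 and 15.66 to 17.10, 17.85 and 17.81, and the groups did not overlap. The rise was 2.12 ± 0.32, or 4.35-fold (adjusted p = 0.00286). Col3a1 rose by 2.06 ± 0.35, from 16.40, 15.63 and 16.43 to 17.55, 18.76 and 18.32 (adjusted p = 0.00487). Array 1 was lowest of the day 7 arrays in both genes and still above day 0.

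Chains that join or coat the fibrils rose further. Col12a1, which links fibrils to other matrix, rose by 3.90 ± 0.61, from 7.28, 7.28 and 7.35 to 9.97, 12.30 and 11.34. Col8a1, a short-chain collagen of vessels, rose by 3.29 ± 0.45 from signals below the negative controls at day 0, so the size of that rise is approximate. Col5a2 (2.12), Col6a3 (1.93), Col14a1 (1.88), Col1a2 (1.30) and Col5a1 (1.23) were also called. The 3 falls were chains of basement membrane zones, Col18a1 (-2.32), Col4a6 (-1.64) and Col4a5 (-1.14), and Col4a1 and Col4a2 were at 0.41 ± 0.17 and 0.22 ± 0.22 without passing. Of the 36 genes 13 lay below the negative controls on all day 0 arrays, and several of the smaller rises (Col9a3 0.21, Col11a2 0.32) were among them. In the fit with the control covariate 9 of the chains rose, Col1a1 among them (2.52 ± 0.50), and with the adipocyte lists 3 did.

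Aspn, asporin, a leucine-rich proteoglycan that binds collagen and TGF-beta, had the largest rise of the named genes. It read 12.21, 11.33 and 12.15 at day 0 and 16.52, 16.78 and 16.88 at day 7. All 3 day 7 arrays lay within a fraction of a log2 unit of each other, and more than 4 units above day 0. The rise of 4.82 ± 0.23 is 28.3-fold (adjusted p = 3.1e-05), and it kept its size with the control difference as a covariate (4.80 ± 0.38, adjusted p = 0.00872). Lum, lumican, of the same family, rose by 3.10 ± 0.45, from 11.78, 11.48 and 12.41 to 14.52, 15.31 and 15.12. Prg4, lubricin, rose unevenly, from 6.89, 6.69 and 5.98 to 8.16, 11.69 and 8.46 (2.92 ± 0.93, adjusted p = 0.047). Its call was lost in 9 of 19 alternatives, among them the fits without day 7 array 2 and without each day 0 array. Other leucine-rich proteoglycans fell, namely Prelp (-3.04 ± 0.35), Ogn (-2.53) and Omd (-1.47), so 5 of 21 proteoglycan and hyaluronan genes rose and 3 fell. With either covariate 1 gene of that list rose and 1 fell. Rises numbered 2 without day 0 array 1 or 3 or day 7 array 2, and 3 without day 0 array 2 or day 7 array 1.

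Genes of activated fibroblasts were higher in 9 of 18 tested, with 1 fall, Acta2. Fap, a serine protease of activated fibroblasts, rose by 1.99 ± 0.21, from 7.18, 6.71 and 7.06 to 8.76, 9.05 and 9.10. Cilp (1.30), Comp, Thbs4, Cthrc1, Runx1 (1.43), Ddah1 (1.79) and Col11a1 (1.01) were called as well. When the control difference entered the fit, 5 of the 18 rose, Fap among them (2.08 ± 0.35), and with the adipocyte covariate 2 did. Postn, periostin, had 18.24, 18.81 and 18.26 at day 0 and 17.75, 18.29 and 18.23 at day 7, a difference of -0.35 ± 0.36 that did not pass, and Tnc, tenascin C, was at -1.90 ± 0.62 and did not pass. Of 15 general fibroblast markers 2 were called higher and 2 lower (Gsn -2.15, Clec3b -1.18), near the 12.1% and 13.2% of all genes tested. The secreted factors C1qtnf3, a C1q-like protein, and Angptl1, an angiopoietin-like protein, rose from dim signals, C1qtnf3 from 6.23, 5.60 and 5.96 to 8.73, 10.49 and 9.48 (3.63 ± 0.36) and Angptl1 from 6.12, 5.75 and 6.04 to 8.97, 9.67 and 8.90 (3.21 ± 0.25).

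Other matrix genes went both ways. Of 20 collagen processing and crosslinking genes 4 rose and 2 fell (median 0.14). Lox, which crosslinks collagen and elastin, rose by 1.85 ± 0.36, and Bmp1, which trims procollagen, by 0.97 ± 0.22. The falls were Pcolce2 (-2.21) and Crtap (-1.02). With the control covariate 2 of that list rose and 0 fell. With the adipocyte covariate 0 were called in limma (5 higher and 2 lower with an unadjusted p under 0.05). Lox was called with neither. Mmp2 and Mmp14, a gelatinase and its membrane activator, rose by 2.37 ± 0.39 and 2.05 ± 0.29. Of 25 matrix proteases and inhibitors 8 rose and 4 fell, the falls being Adamts1 (-3.66), Adamts8 (-1.23), Timp3 (-1.20) and Timp2 (-0.99). Given the control difference as a covariate, 6 of the proteases and inhibitors rose and 1 fell, and with the adipocyte covariate 1 rose and 1 fell. The falls numbered 2 with any of the arrays left out but day 7 array 3. In the basement membrane list 5 of 13 fell and 2 rose. Its falls were Npnt, nephronectin (-5.94 ± 0.91), Hspg2, perlecan (-2.48), the laminins Lamb2 (-2.37) and Lama4 (-1.66), and Lama5 (-1.37). Under the control difference and the adipocyte covariate 0 genes of the list fell in limma, and 3 and 4 had an unadjusted p under 0.05. Of 14 elastic fibre genes 3 fell and 1 rose, beside 13.2% and 12.1% of all genes tested. The falls were the TGF-beta binding proteins Ltbp1 (-3.66) and Ltbp4 (-2.74) and the fibulin Fbln5 (-2.28), and Ltbp2 rose (1.56). Fbln5 was 13.38 on array 3 against 10.98 and 10.75 on arrays 1 and 2, with day 0 at 13.66, 14.49 and 13.80. Fbln5 kept its call in 11 of 19 alternatives. With the control covariate 0 elastic fibre genes fell in limma (2 lower with an unadjusted p under 0.05) and 1 rose. With the adipocyte covariate 1 fell and 0 rose. Eln itself was at 0.51 ± 0.37 and did not pass.

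**Figure D2:**
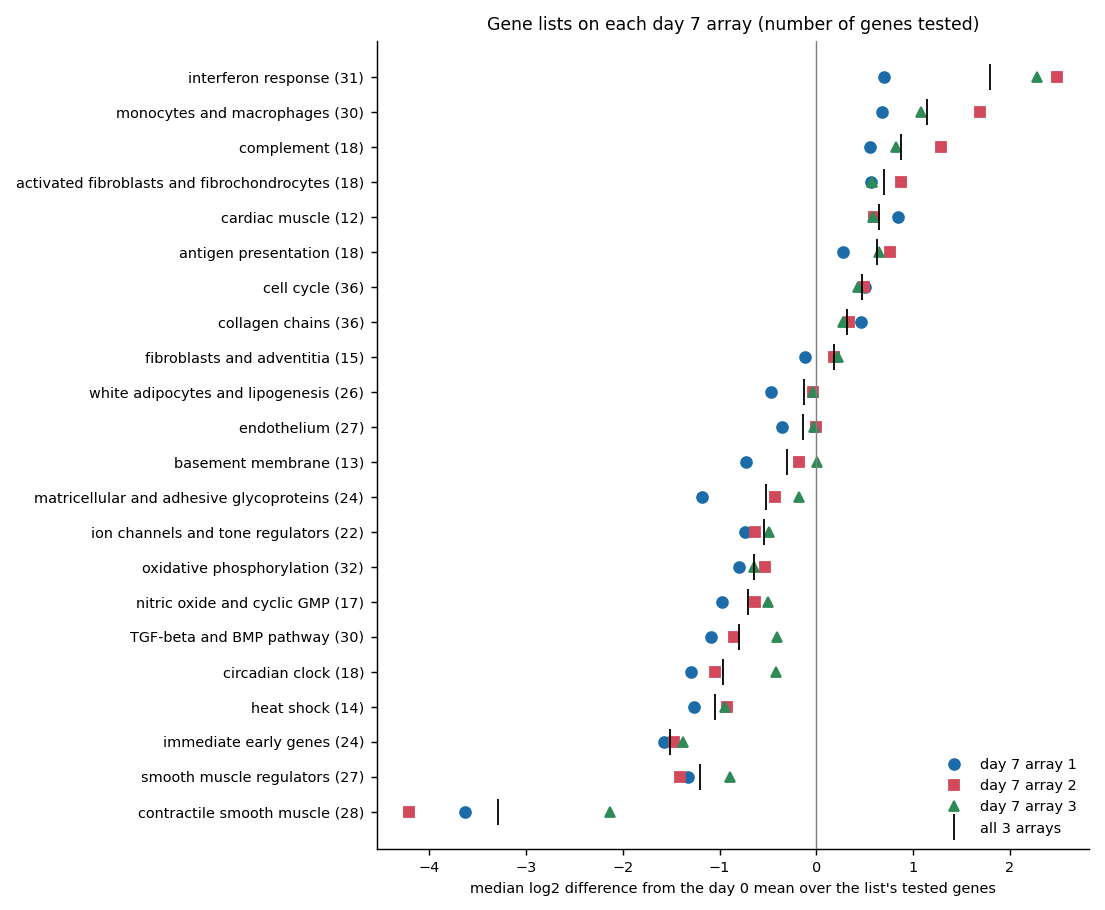
Median log2 difference from the day 0 mean over the tested genes of 22 lists, for day 7 array 1 (circles), 2 (squares) and 3 (triangles), with the median of the 3-array change as a black tick. The contractile list lies between -2.13 on array 3 and -4.21 on array 2, and the interferon list between 0.69 on array 1 and 2.49 on array 2.

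Markers of monocytes and macrophages were higher at day 7, with 22 of 30 tested called up and 0 down and a median of 1.14 (array medians 0.68, 1.69 and 1.08). Lyz2, lysozyme of myeloid cells, rose from 12.66, 12.21 and 12.71 to 15.23, 16.14 and 15.77. The change of 3.19 ± 0.38 is 9.09-fold (adjusted p = 0.00131), and groups that do not overlap were a condition for naming this gene. Ccr2, the chemokine receptor that brings monocytes into tissue, rose by 2.23 ± 0.32, from 6.05, 5.89 and 6.07 to 7.81, 8.86 and 8.02. Array 2 was the highest day 7 array in 21 of the 30 markers and array 1 the lowest in 21. Ms4a6c (2.36), Ms4a7 (2.02), the complement genes C1qa (1.26), C1qb (1.92) and C1qc (1.17), the Fc receptors Fcgr1 (1.66) and Fcgr3 (1.67), Adgre1 (1.55), Itgam (1.41) and Csf1r (0.88) passed. Markers of resident vascular macrophages were not called: Lyve1 at -0.55 ± 0.28, Folr2 at 0.39 ± 0.26, Timd4 at -0.30 ± 0.17 and Mrc1 at 1.64 ± 0.54 (adjusted p = 0.0509). The rises numbered 14 without day 0 array 1, 14 without day 7 array 2, 6 with the control difference as a covariate and 1, Lyz2, with the adipocyte lists.

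Secreted and surface proteins of innate immunity followed the same direction. Of 18 complement genes 11 rose and 1 fell, with C4b rising from 9.40, 10.23 and 10.15 to 12.24, 14.80 and 12.93 (3.40 ± 0.58) and Cfb, factor B, by 2.34 ± 0.54. The fall was C7, of the membrane attack complex (-3.85 ± 0.86), whose day 0 arrays read 15.33, 12.49 and 14.87. With the control difference as a covariate 4 complement genes rose, C4b among them (4.72 ± 0.78), and with the adipocyte covariate 0 did (10 with an unadjusted p under 0.05 in limma). Among chemokines and receptors 11 of 24 rose and 0 fell, including Ccl8 (2.00) and Ccl12 (1.76), which started below the negative controls, and Cxcl13, a B cell attractant, with 8.63, 11.33 and 8.01 at day 7. Cxcl13 kept its call in 11 of 19 alternatives. The chemokine rises numbered 3 with the control difference as a covariate, 0 with the adipocyte covariate (7 with an unadjusted p under 0.05 in limma), 6, 6 and 5 without day 0 array 1, 2 or 3, and 6 without day 7 array 2. Serpina3n, a secreted protease inhibitor of the acute phase, went from 9.83, 10.24 and 8.65 to 12.01, 15.92 and 13.01 (4.07 ± 0.88, adjusted p = 0.0122), and array 2 stood far above the other 2. Ctss, the lysosomal protease cathepsin S, showed the same order, 9.48, 13.19 and 11.72 from 7.14, 7.62 and 7.53 (4.03 ± 0.74). Hp, haptoglobin, rose by 2.60 ± 0.59 and the alarmin Il33 by 1.85 ± 0.42.

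Class II antigen presentation genes rose, H2-Ab1 by 2.24 ± 0.46, H2-Eb1 by 1.77 ± 0.37 and H2-Aa by 1.76 ± 0.32, among 10 of 18 presentation genes called up and 0 down. H2-Ab1 read 8.39, 8.96 and 9.01 at day 0 and 9.77, 11.62 and 11.67 at day 7, again lowest on array 1. With the control difference as a covariate 7 presentation genes rose, and with the adipocyte covariate 0 did (9 with an unadjusted p under 0.05 in limma). The class I genes H2-K1 (0.96 ± 0.53) and H2-D1 (0.68 ± 0.36) did not pass. On array 1 they were at 10.36 and 9.74, below all day 0 arrays, and on arrays 2 and 3 above all of them. Dendritic cell markers rose in 6 of 10 genes tested and T and natural killer markers in 2 of 7 (Il7r 0.78, Klrb1c 0.40), and 7 of the 10 and all of the 7 lay under the negative controls at day 0. B cell markers were called in 0 of 6 by limma (0 with an unadjusted p under 0.05), neutrophil markers rose in 4 of 9, led by Lcn2 (1.38) and S100a8 (0.92), both under the negative controls at day 0, and mast cell markers fell in 3 of 7 (Cpa3 -1.19, Mcpt4 -0.84, Kit -0.36). These small counts moved with single arrays. Dendritic cell rises numbered 3 without any 1 of the day 0 arrays and 4 without day 7 array 1 or 2, neutrophil rises 2 without any 1 of the day 0 arrays or day 7 array 2, and mast cell falls 0 without day 0 array 3 or day 7 array 1. With the control difference as a covariate 0 dendritic, 0 T and natural killer and 0 mast cell genes were called in limma. In that fit 1 neutrophil gene rose. With an unadjusted p under 0.05 in limma, 3 dendritic genes were higher and 0 mast cell genes differed. Of the T and natural killer genes 1 was higher and 2 were lower at that level. Their median was -0.25 there and 0.13 in the main fit.

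Interferon-stimulated genes, which are induced by interferons and restrict virus replication, rose on 2 arrays more than on the third. Of 31 tested 25 rose and 0 fell, with a median of 1.79. Array 1 was the lowest of the 3 day 7 arrays in 31 of 31 genes, and the array medians were 0.69, 2.49 and 2.28. Stat2 read 7.04, 7.24 and 7.40 at day 0 and 7.92, 10.26 and 10.59 at day 7, a rise of 2.36 ± 0.55 (adjusted p = 0.0167). Oas2, which makes the second messenger that activates RNase L, went from 6.22, 6.21 and 6.83 to 8.24, 11.30 and 11.55 (3.95 ± 0.72, adjusted p = 0.00626). In both genes the groups did not overlap, although array 1 lay nearer to day 0 than to the other day 7 arrays.

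Members of the p200 family of DNA sensors rose with array 2 highest. Ifi204 went from 8.35, 7.98 and 8.67 to 10.21, 13.99 and 12.46 (3.89 ± 0.73), Ifi207 from 8.87, 7.87 and 8.85 to 10.23, 13.28 and 11.87 (3.26 ± 0.62), and outside the list Ifi211 rose by 3.38 ± 0.70 and Mndal by 3.29 ± 0.45. Other members had array 1 close to the day 0 values. Ifit1, which binds foreign RNA caps, was at 5.81, 5.77 and 5.97 at day 0 and 6.44, 9.81 and 9.08 at day 7 (2.59 ± 0.69), and the RNA sensor Ddx58 at 7.19, 7.11 and 7.35 against 7.32, 8.98 and 8.86 (1.17 ± 0.36). Ifit1 on array 1 stayed just above day 0, and Ddx58 on array 1 lay inside the day 0 range. Irf1 and the interferon-induced GTPases Gbp2, Gbp3, Gbp7, Igtp and Iigp1 were not called. Gbp7 read 8.47, 8.68 and 9.28 at day 0 and 8.47, 11.40 and 11.54 at day 7 (1.66 ± 0.68, adjusted p = 0.0918), and Igtp 7.28, 7.67 and 9.45 against 7.16, 10.27 and 10.62. Day 0 array 3 was the highest of its group in these GTPases. On arrays 2 and 3 all 31 genes lay above all day 0 arrays, and on array 1 23 did. All 3 day 7 arrays were above in 23, beside 26.6% of all genes tested. Of the 31 genes 11 were under the negative controls on all day 0 arrays, among them Irf7 (2.15), Isg15 (0.90), Mx1 (1.29) and Rsad2 (1.81), so those sizes are approximate. The rises numbered 26 with the control difference as a covariate (median 2.88), 0 with the adipocyte covariate in limma (median 1.78, and 25 with an unadjusted p under 0.05), 7 with the fit on the 6 arrays alone, 15 without day 0 array 1 and 16 without day 0 array 2.

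The interferon-stimulated response element, written as GAAANNGAAA on both strands, was looked for in the same windows of 250 bases. It was in 14 of the 22 list genes with a window (63.6%) against 3.46% of 27025 genes, and 10 of the 17 genes with a window that rose held it. The 4 others that held it, Gbp2, Gbp3, Gbp7 and Igtp, were not called. The list was made of known interferon-stimulated genes, so its share of the element describes the list and not the rise. Stretches of 3 genes that rose are given to show the shared letters. Stat2 lies at chr10:128270251-128270310 on the plus strand with its match 222 bases before the transcription start, Rsad2 at chr12:26456538-26456597 on the minus strand with 120 bases, and Ifit1 at chr19:34640779-34640838 on the plus strand with 85 bases.
Stat2: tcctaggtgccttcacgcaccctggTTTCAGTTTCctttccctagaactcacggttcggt
Rsad2: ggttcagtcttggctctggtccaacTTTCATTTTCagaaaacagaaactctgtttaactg
Ifit1: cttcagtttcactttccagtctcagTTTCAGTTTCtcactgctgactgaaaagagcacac
Each is printed along the gene from 5′ to 3′ in GRCm38.p6 with the element in capitals, and all 3 hold it as its reverse complement. The Ifit1 stretch holds another match that is left in lower case.

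Most genes of the respiratory chain were lower. Of 32 oxidative phosphorylation subunits 25 fell and 0 rose (median -0.64, array medians -0.80, -0.53 and -0.64). Ndufb9 of complex I went from 12.10, 12.26 and 11.46 to 9.46, 10.74 and 9.97, a change of -1.88 ± 0.35, and Cox6a1 of complex IV fell by 1.49 ± 0.22. Atp5a1 of ATP synthase fell by 1.25 ± 0.26, from 11.69, 12.08 and 11.49 to 10.05, 10.69 and 10.75. All day 7 arrays lay below all day 0 arrays in 29 of the 32 genes, beside 20.5% of all genes tested. Array 1, which had the lowest signal quality, was the lowest day 7 array in 26 of them and array 3 the highest in 19. The falls numbered 16, 15 and 16 without day 0 array 1, 2 or 3, 14 without day 7 array 1, 0 with the control difference as a covariate (11 with an unadjusted p under 0.05 in limma) and 1 with the adipocyte lists. Fatty acid oxidation and the citrate cycle had 10 falls among 27 genes and 0 rises, with Cs, citrate synthase, at -1.58 ± 0.30 and Ogdh at -1.62 ± 0.26. Those falls numbered 0 with the control difference or the adipocyte covariate (2 and 3 with an unadjusted p under 0.05 in limma), 6, 3 and 6 without day 0 array 1, 2 or 3, and 4 and 6 without day 7 array 1 or 2.

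Lipogenic enzymes fell. Fasn, fatty acid synthase, read 14.71, 15.83 and 12.99 at day 0 and 8.94, 9.71 and 10.11 at day 7, a change of -4.92 ± 0.67 (adjusted p = 0.0021). Me1 (-3.95), Acly (-2.93), Acaca (-2.48) and Elovl6 (-1.20), which feed or extend the same chain, fell as well, and day 0 array 3 was the lowest and array 2 the highest of the untreated arrays in Fasn, Me1, Acly and Acaca. Adipoq, adiponectin, rose by 1.17 ± 0.35, Plin1 was at 0.30 ± 0.33 and Cidec at 0.69 ± 0.34. Altogether 7 of 26 white adipocyte and lipogenesis genes fell and 2 rose, and the list's mean signal was 11.59, 11.90 and 11.18 at day 0 and 10.55, 11.08 and 11.02 at day 7. Of 14 brown adipocyte genes 4 fell, among them Prdm16 (-1.73). Under the control covariate 0 genes of either adipocyte list fell in limma (3 of each with an unadjusted p under 0.05). Fasn was then at -3.56 ± 0.95 (adjusted p = 0.0811). In that fit 2 genes of the white adipocyte list rose, and 8 were higher with an unadjusted p under 0.05 in limma. The median of that list was 0.71 there and -0.13 in the main fit. The white adipocyte rises, Adipoq among them, numbered 0 in limma without any 1 of the day 0 arrays or without day 7 array 2 or 3. At an unadjusted p under 0.05 in limma, 2 or 3 genes were higher in those fits. The white adipocyte falls numbered 4 without day 0 array 1 or 2 or day 7 array 1, and the brown ones 2 without day 0 array 1 or 2 or day 7 array 2.

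Stress-induced genes that were high in the untreated vessels were low at day 7. Hspa1a, the inducible heat shock protein, went from 14.83, 13.32 and 15.01 to 6.22, 7.39 and 6.93, a change of -7.54 ± 0.71 (adjusted p = 0.000759). Among heat shock genes 9 of 14 fell and 0 rose (median -1.04), and Hspa8 was at the upper end of the scale on all 6 arrays, where no change can be seen. Of 24 immediate early genes 16 fell and 0 rose (median -1.51, array medians -1.57, -1.47 and -1.38). Nr4a1 read 12.70, 12.72 and 15.31 at day 0 and 8.29, 9.37 and 9.67 at day 7 (-4.47 ± 0.82), and Jun (-2.42), Fos (-2.55) and Atf3 (-3.03) fell. With either covariate 3 heat shock genes and 3 immediate early genes fell. Hspa1a (-6.48 ± 1.10) and Jun (-1.86 ± 0.36) were called with the control difference as a covariate, and Nr4a1 (-3.02 ± 1.22) was not. Without day 7 array 1 the immediate early falls numbered 9. These transcripts are known to be induced by handling of tissue and by stretch. The sources used here do not say how long the vessels of each group waited before lysis, and the part of handling in these values was not tested.

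Clock output genes were lower, with 11 of 18 down and 1 up. Nr1d1, a repressor of the clock, fell from 11.17, 10.86 and 11.40 to 8.31, 8.63 and 9.53 (-2.32 ± 0.41). Dbp (-1.97 ± 0.33) and Per2 (-1.57 ± 0.37) fell too. Arntl, an activator of the clock, rose by 0.90 ± 0.16 from 5.56, 5.24 and 5.17 to 6.35, 6.37 and 5.95. With either covariate 1 gene of the list fell, and Nr1d1 was at -1.37 ± 0.53 with the control difference (adjusted p = 0.198). The falls numbered 7 and 5 without day 0 array 1 or 3, and 7 and 6 without day 7 array 1 or 2. The sources used here do not give the hour of tissue collection, and its part was not tested.

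Proliferation genes were modestly higher at day 7. Of 36 cell cycle genes 14 rose and 2 fell, with a median of 0.47. Mki67 read 5.62, 5.95 and 5.57 at day 0 and 7.19, 7.83 and 7.74 at day 7, a rise of 1.87 ± 0.49 or 3.67-fold (adjusted p = 0.0255). Top2a rose by 1.19 ± 0.31, while the replication licensing gene Mcm6 fell by 1.03 ± 0.22 and Mcm2, Mcm3, Mcm4 and Mcm5 were between -0.04 and 0.21 without passing. On the day 3 arrays Mki67 was at 8.33, 9.65 and 9.19, above all day 7 arrays, although the difference of -1.47 ± 0.49 between those days did not pass (adjusted p = 0.259). Of the 36 genes 21 were under the negative controls at day 0. The rises numbered 3 without any 1 of the day 0 arrays or without day 7 array 2, and 6 without day 7 array 1. Under the control and the adipocyte covariate 0 genes of the list were called in limma. Mki67 was then at 1.68 ± 0.82 and 1.21 ± 0.64. With an unadjusted p under 0.05 in limma, 2 were higher under the control covariate. Under the adipocyte covariate 4 were higher and 1 was lower at that level.

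Endothelial markers were mostly not called, with a median of -0.14. Of 27, 5 were down and 1 up, beside 13.2% and 12.1% of all genes tested. The falls were Bmx (-1.90), Gja5 (-1.66) and Vwf (-1.61), which mark arterial or injured endothelium, Erg (-1.22) and Podxl (-0.58). Cdh5 was at 0.21 ± 0.37 and Pecam1 at -1.44 ± 0.50 (adjusted p = 0.058). Cd36, a fatty acid carrier of capillaries, fat and macrophages, rose by 1.74 ± 0.49. The falls numbered 1, 3 and 2 without day 0 array 1, 2 or 3, and 2 and 3 without day 7 array 1 or 2. Under either covariate 0 genes were called in limma. With an unadjusted p under 0.05 in limma, 3 were higher and 4 lower under the control covariate. Under the adipocyte covariate 3 were higher and 6 lower at that level. Vwf kept its call in 10 of 19 alternatives.

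Markers of heart muscle were higher on all day 7 arrays. Of 12 cardiac genes tested 8 rose and 0 fell. At day 0, 8 of the 12 lay under the negative controls, and the mean signal of the list was 5.79, 5.87 and 5.76 at day 0 and 6.72, 6.50 and 6.63 at day 7. Myh6, the atrial and ventricular myosin heavy chain, read 5.30, 5.44 and 5.21 at day 0 and 7.92, 7.77 and 7.96 at day 7. The day 7 values were tightly grouped, and the rise of 2.56 ± 0.11 (adjusted p = 2.31e-05) started under the negative controls, so it is approximate. Tnnt2, troponin T, rose by 1.91 ± 0.18, from 7.34, 8.01 and 7.37 to 9.28, 9.67 and 9.50, and Myl7, the atrial light chain, by 1.51 ± 0.15, while Nppb (0.44 ± 0.24) and Ryr2 (-0.56 ± 0.32) did not pass. Skeletal muscle markers rose in 6 of 11 genes and fell in 1, with Myh1 at 5.48, 7.65 and 6.72 on the day 7 arrays against 4.95, 4.95 and 5.46, and 5 of the 11 were under the negative controls at day 0. The skeletal rises numbered 0, 0 and 2 without day 0 array 1, 2 or 3, and 0 and 2 without day 7 array 2 or 3. The share of heart or skeletal muscle in the dissected samples was not tested. In the fits with either covariate 4 cardiac genes rose, Myh6 at 2.45 ± 0.17 and 2.56 ± 0.16. In the nerve and Schwann cell list 1 of 13 fell, the adhesion molecule Ncam1, which smooth muscle can also express, by 4.13 ± 0.43, and 0 rose.

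**Figure D3:**
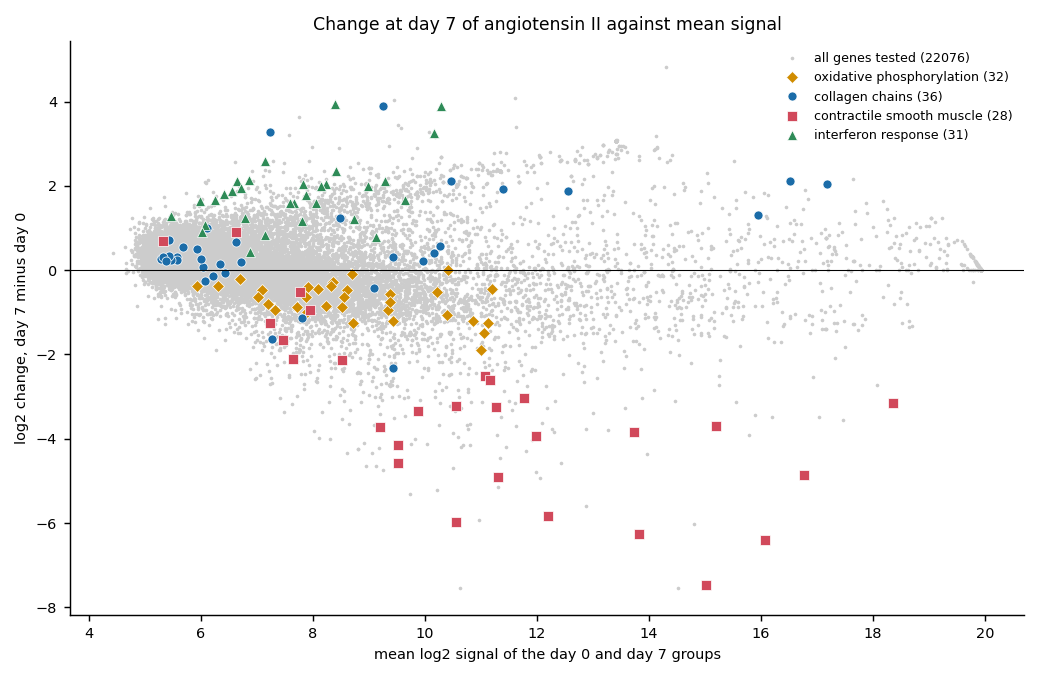
Log2 change at day 7 against the mean log2 signal of the day 0 and day 7 groups for 22076 genes tested (grey), with 4 lists marked. Contractile genes (squares) extend to -7.46 at high signal, interferon genes (triangles) all lie above 0, collagens (circles) run from -2.32 to 3.90, and oxidative phosphorylation genes (diamonds) from -1.88 to 0.01.

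The 3 day 7 arrays differed from each other more than the untreated arrays did. The median over genes of the SD within a group was 0.250 at day 7, 0.147 at day 3 and 0.130 at day 0, and Pearson r between arrays over genes was 0.974 to 0.985 within day 7 and 0.991 to 0.992 within day 0. Among the 2669 rises array 3 showed the smallest of the 3 differences from the day 0 mean in 1651, and the median rise was 0.81, 0.90 and 0.61 on arrays 1, 2 and 3. In the 2904 falls array 1 was lowest in 1871 and array 3 closest to day 0 in 1759, with medians of -1.04, -0.72 and -0.65.

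The groups of genes split the arrays in different ways. Array 3 was closest to day 0 for contractile genes, array 1 for interferon genes, and array 2 was highest for macrophage, complement and acute phase genes. The 10 called genes whose outermost day 7 array stood farthest from the other 2, relative to the change, were Ddx58, Gbp9, Cxcl13, Vim, Eef2, Rab1a, Enc1, Sema6b, Stard9 and Fgb. Gbp9, an interferon-induced GTPase, read 8.93, 11.27 and 11.32 against 8.26, 8.51 and 9.07 at day 0 (1.89 ± 0.56), so array 1 lay inside the day 0 range. Vim, vimentin, read 17.27 on array 1 against 18.10 and 18.20, and Eef2, a translation factor, 14.34 against 15.46 and 15.42, both from higher day 0 values. Rab1a, of vesicle traffic, followed them with 9.87 against 10.89 and 10.86. Array 1 was the outlying array for these 3 genes. Their changes (-0.63 ± 0.21, -0.87 ± 0.27 and -0.81 ± 0.25) had adjusted p of 0.0494, 0.0449 and 0.0406. A lone array cannot be tested against the other 2.

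Day 7 was then set against day 3. The difference of means uses no untreated array, while the standard errors come from the fit on all 12 arrays. In limma 25 genes rose and 34 fell, 0.113% and 0.154% of those tested, and 2855 had an unadjusted p under 0.05. The groups did not overlap in any of the 59. Aspn was at 12.65, 12.53 and 12.58 on the day 3 arrays, close to day 0, and its difference between day 7 and day 3 was 4.13 ± 0.23 (adjusted p = 0.00013). C1qtnf3 (3.78 ± 0.36) and Angptl1 (3.05 ± 0.25) had the same course, with day 3 arrays at 5.98, 5.81 and 5.57 and at 5.75, 6.32 and 6.33. Matrix and fibroblast genes among the rises also included Thbs2, thrombospondin 2 (2.30 ± 0.27), and Fap (1.63 ± 0.21).

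The other rises were of mixed kinds. Of the monocyte and macrophage list 1 gene rose and 1 fell, with a median of 0.06. Mpeg1, a pore-forming protein of macrophages, rose from 6.26, 7.11 and 6.65 at day 3 to 8.34, 8.93 and 8.47 (1.91 ± 0.26), and Apoe by 1.42 ± 0.18. The 4 cardiac genes Myh6 (2.26 ± 0.11), Tnnt2 (1.48 ± 0.18), Myl7 (1.29 ± 0.15) and Myh7 (0.57 ± 0.08) passed here too. Clu, clusterin, rose from 8.89, 9.79 and 9.65 to 11.29, 12.31 and 11.34, values that lay around those of day 0 (11.31, 11.55 and 11.46). Pon1, paraoxonase (3.11 ± 0.40), and the kinase Plk2 (2.04 ± 0.33) complete the 10 largest.

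Among the falls, F3, tissue factor, which starts coagulation, went from 14.81, 14.50 and 13.88 at day 3 to 10.29, 8.70 and 11.12 at day 7, a difference of -4.36 ± 0.54 (20.5-fold, adjusted p = 0.016), with day 0 at 13.64, 12.64 and 13.28. Esm1, endocan of activated endothelium, was 10.07, 10.09 and 10.88 at day 3, 7.24, 7.48 and 7.50 at day 7 and 6.10, 6.60 and 5.74 at day 0. Mmp3, stromelysin, showed the same course of a high day 3 and a lower day 7 (-2.67 ± 0.32), as did the matrix protein Svep1 (-2.05 ± 0.30). Lyve1, the hyaluronan receptor of lymphatic endothelium and resident macrophages, fell from 10.21, 10.61 and 11.26 to 7.79, 7.67 and 8.10 (-2.84 ± 0.28), under all day 0 arrays. The mast cell protease Cpa3 (-2.07 ± 0.29), the desaturase Fads1 (-1.55 ± 0.21), Plp2 (-1.75 ± 0.19), Creb3l2 (-1.49 ± 0.20) and the ribosomal gene Rpl41 (-1.55 ± 0.22) followed. Pseudogenes made up 12 of the 34 falls and 1 of the 25 rises, and their share of all genes tested was not counted. Copies that share sequence with a parent gene may share signal, which was not tested.

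**Figure D4:**
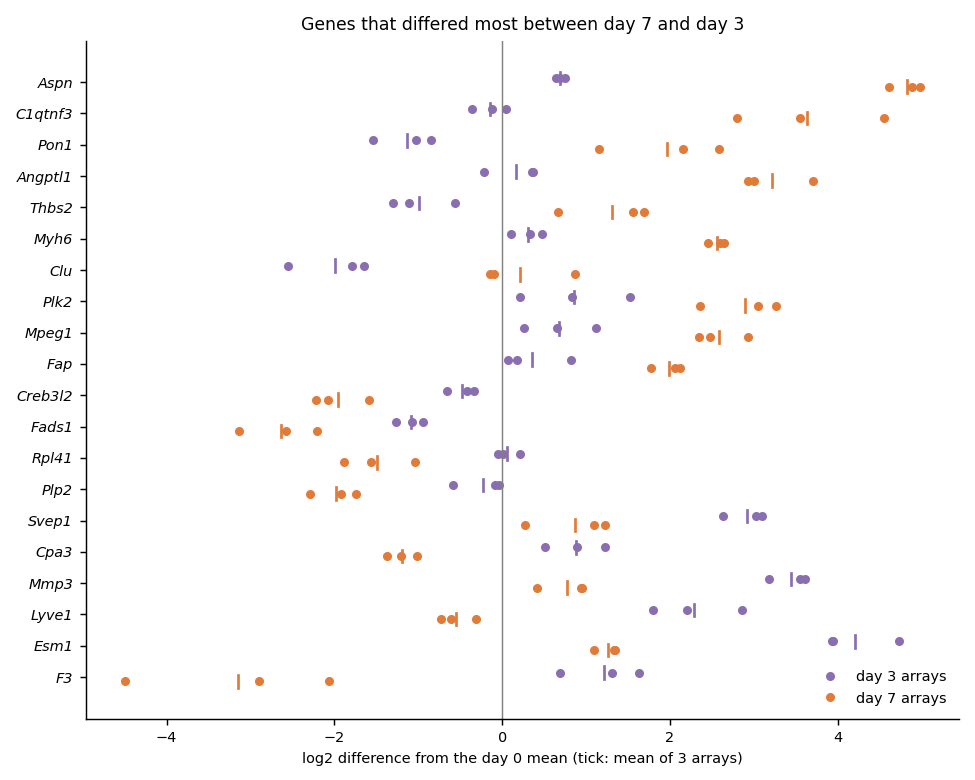
Log2 difference from the day 0 mean on each day 3 array (purple) and day 7 array (orange) for the 10 genes with the largest rise and the 10 with the largest fall between day 3 and day 7, with ticks at the group means. Aspn lies near 0.69 at day 3 and 4.82 at day 7, and Mmp3 and Svep1 are high at day 3 and nearer to 0 at day 7.

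By limma's adjusted p, 0 genes of the contractile, interferon and collagen lists passed between day 3 and day 7, while 20, 29 and 13 had an unadjusted p under 0.05. The list medians of that difference were -1.36, 1.46 and 0.14, beside 0.018 over all genes. Myh11 was at 16.67, 15.71 and 14.79 at day 3, with array 3 of day 7 (15.10) inside that range and the other 2 below it (-2.86 ± 1.07, adjusted p = 0.306). Stat2 was at 7.41, 7.53 and 7.49 at day 3, below all day 7 arrays (2.11 ± 0.55, adjusted p = 0.16). The number of calls between these days moved with single arrays: 273 without day 7 array 1, 186 without day 7 array 3, and 17, 16 and 10 without day 3 array 1, 2 or 3. Fitted with the control covariate, it was 378.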

How the data were processed

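Total RNA of mouse vessels was labelled as biotinylated cRNA and measured on Affymetrix arrays, per the labels' protocols. The authors deposited log2 signals per transcript cluster, made in Expression Console (Affymetrix), as the submitters' processing notes name it; the sources used here do not give its version, background correction or normalization. The array design in the labels differs from that of the deposited identifiers, and genes were named through the platform annotation of the latter. Of 65956 transcript clusters 31280 carried 1 gene symbol, 1470 several and 33206 none; those without a unique symbol were not analysed here.

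Values were used as deposited. A gene entered the tests if 3 or more of the 12 arrays were at or above the 40th percentile of all signals (5.25). Genes were tested in limma 3.58.1 (R 4.3.3) with a mean per day, all 12 arrays in the fit, eBayes without trend, and Benjamini-Hochberg adjustment over all genes tested. The method was tested on simulated data. Gene lists were described by counts and medians, with no set test. Members and lists were chosen with earlier results of these data known. Named genes were the 16 largest changes in each direction among called genes with non-overlapping groups, the 10 largest in each direction against day 3, up to 4 called members per list, 10 genes that differed among arrays, and list members that a result turned on. Same-numbered arrays did not deviate together (correlations -0.006, 0.077 and -0.021 between day 0 and day 7, and -0.106, 0.219 and -0.455 between day 3 and day 7), so replicate numbers were not used as pairs. Alternatives were 3 normalizations, other filters, the mean of a gene's features, a variance trend, array weights, a replicate block, 2 covariates, the 6 arrays alone, and each array left out. For the gene list counts, the 2 covariates, the fit on 6 arrays and most fits with an array left out were added after seeing the data. The number of arrays limits the precision. Array weights were taken from an estimate that had not converged.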

Additional observations from a re-analysis of the deposited data

Results flagged for a closer look

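The genes below were chosen among those whose difference between day 7 and day 3 passed with all arrays and whose groups did not overlap. That each passed is therefore a condition of the choice and no further result. Leaving out day 3 array 1, 2 or 3 kept 7, 9 or 5 of these 20 calls, and leaving out day 7 array 2 kept 16. Changes against day 0 at day 3 and day 7 rest on the same untreated arrays. The day 7 minus day 3 differences (log2) of genes that rose were 4.13 for Aspn, 3.78 for C1qtnf3, 3.11 for Pon1, 3.05 for Angptl1, 2.30 for Thbs2, 2.26 for Myh6, 2.20 for Clu, 2.04 for Plk2, 1.91 for Mpeg1 and 1.63 for Fap. Of these, Pon1 and Thbs2 had means below day 0 at day 3 (-1.14 and -0.99) and above it at day 7 (1.97 and 1.31). Clu was at -1.99 at day 3 and at 0.21 at day 7, where its arrays overlapped day 0. The differences of genes that fell were -4.36 for F3, -2.94 for Esm1, -2.84 for Lyve1, -2.67 for Mmp3, -2.07 for Cpa3, -2.05 for Svep1, -1.75 for Plp2, -1.55 for Rpl41, -1.55 for Fads1 and -1.49 for Creb3l2. F3, Lyve1 and Cpa3 had means above day 0 at day 3 (1.21, 2.29 and 0.88) and below it at day 7 (-3.15, -0.55 and -1.19).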

How the results depend on the processing

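Named genes mostly kept their call and direction when the normalization, the filter or the variance model was changed, and counts moved most with covariates and with fewer arrays. Against day 0, the 5573 calls became 2720 (1195 rises, 1525 falls) in the fit on 6 arrays, 772 (487 and 285) with the control difference as a covariate and 347 (87 and 260) with the adipocyte covariate. Leaving out 1 array gave 2839 to 7475 calls, 1015 to 4214 rises and 1742 to 3261 falls. Quantile normalization gave 1767 rises and 3495 falls, and median centring 1950 and 3702. Against day 3, the 59 calls became 253 after quantile normalization, 227 after cyclic loess and 378 with the control covariate, and 10 to 273 with 1 array left out. Of the gene lists, with the control and then the adipocyte covariate, contractile falls numbered 3 and 5, falls of smooth muscle regulators 2 and 3, collagen rises 9 and 3, macrophage rises 6 and 1, falls in oxidative phosphorylation 0 and 1, and cardiac rises 4 and 4. Interferon rises numbered 0 with the adipocyte covariate and 7 on 6 arrays. With 1 array left out, interferon rises ranged from 15 to 30, macrophage rises from 14 to 22 and falls in oxidative phosphorylation from 14 to 25. These list counts under covariates and on 6 arrays were chosen after seeing the data. Both covariates overlap with the day. Eef2 and Rab1a changed sign with the control covariate (0.00 and 0.02). The cause was not tested. The fit with a replicate block, in a series whose numbers showed no pairing, gave 5780 calls (2646 rises, 3134 falls) against day 0 and 78 against day 3. Of the 179 named genes, 168 kept their call after quantile normalization, 171 after median centring, 166 after cyclic loess, 171 with the replicate block, 55 with the control covariate and 36 with the adipocyte covariate. The estimate behind the array weights (6751 calls) had not converged. With 3 arrays a group and weaker signal over background at day 7, dim genes have only approximate sizes. Of the 22076 genes tested 7310 lay below the negative controls on all day 0 arrays, and 1225 of the rises were among them. Of those rises 624 also lay below the negative controls on all day 7 arrays, so there the rise itself is uncertain.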
